A study of Sus scrofa with 6 samples.

Results

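The collagen genes beyond types I and III were compared between 3 wild boars and 3 domestic pigs of the Rongchang breed, from RNA of brain. Members were taken by symbol, as COL followed by a number, A and a number, leaving out COL1A1, COL1A2 and COL3A1, which gave 36 of the 21280 protein-coding genes listed. A further 6 collagens, COL6A4, COL7A1, COL9A2, COL20A1, COL24A1 and COL26A1, had no row under their symbol and are not among the 36. By their labels all the animals were 2-year-old females. The tissue label was brain for wild boar and cerebrum for domestic pig, whose libraries came from an earlier deposit and were re-analysed, so breed, project and labelled tissue cannot be told apart. RNA of whole tissue was depleted of ribosomal RNA, and the level of each gene was given as TPM, its transcripts scaled to length and to a fixed library total. In such bulk tissue, fewer cells of a type and less RNA per cell cannot be told apart.

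Collagens are secreted or membrane proteins of 3 chains wound into a triple helix, and each chain has its own gene. In brain they are known mostly from the walls of blood vessels and from the meninges. Type IV chains build the sheet of every basement membrane, which in brain surrounds the vessels and underlies the pia, and types XV and XVIII lie at the edge of that sheet. Types V and XI are minor fibrillar collagens that mix into fibrils of types I and II and set their width. A few collagens are made by neurons, among them COL25A1, a transmembrane collagen first described in the amyloid plaques of Alzheimer disease, and COL19A1, known in mouse from interneurons and the synapses they form. By this background the members were split into 8 basement membrane genes, 7 fibrillar genes, 2 neuronal genes, 7 further fibril-associated genes, 5 chains of the beaded filament type VI, 4 network, anchoring and other genes, and 3 further transmembrane genes.

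The libraries resembled brain. The summed TPM of 4 neuronal genes (RBFOX3, SNAP25, SYT1, STMN2) was 710.3 to 1827 in wild boar, against 1257 to 2268 in domestic pig. The listed TPM summed to 17.17% to 31.04% of 1000000 in wild boar, against 23.49% to 40.88% in domestic pig, and the log2 fold change of the median gene was -0.41 on deposited TPM. Fold changes are therefore given after median-ratio rescaling between libraries, which moved that median to 0.01, with the deposited value beside them. They are of TPM + 1, wild boar over domestic pig, and understate changes of low genes. TPM keeps no read depth. Libraries of a group correlated at r = 0.975 to 0.985 over genes, and libraries of different groups at 0.944 to 0.967.

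COL25A1 was the highest of the 36 members in every library, and neither neuronal member passed the test between the breeds. It stood at 9.85, 5.12 and 12.7 TPM in wild boar 1 to 3, against 8.90, 17.2 and 12.8 TPM in domestic pig 1 to 3, or 9.21 ± 3.81 and 13.0 ± 4.13 TPM (SD, n = 3 each). The groups overlapped on deposited TPM and after rescaling. The rescaled log2 fold change was -0.02 (SE 0.13, limma adjusted p = 0.918), and on deposited TPM it was -0.49 (adjusted p = 0.500). The other neuronal member, COL19A1, was at 1.69, 0.766 and 1.79 TPM in wild boar, against 1.95, 2.51 and 2.6 TPM in domestic pig. Every wild boar library was below every domestic pig library on deposited TPM, but the groups overlapped after rescaling, where the change was -0.19 (SE 0.12, limma adjusted p = 0.300). Together the pair of neuronal genes held 25.7% ± 3.30 of the summed TPM of all 36 members in wild boar, against 26.7% ± 0.436 in domestic pig (SD, n = 3 each).

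**Figure D1:**
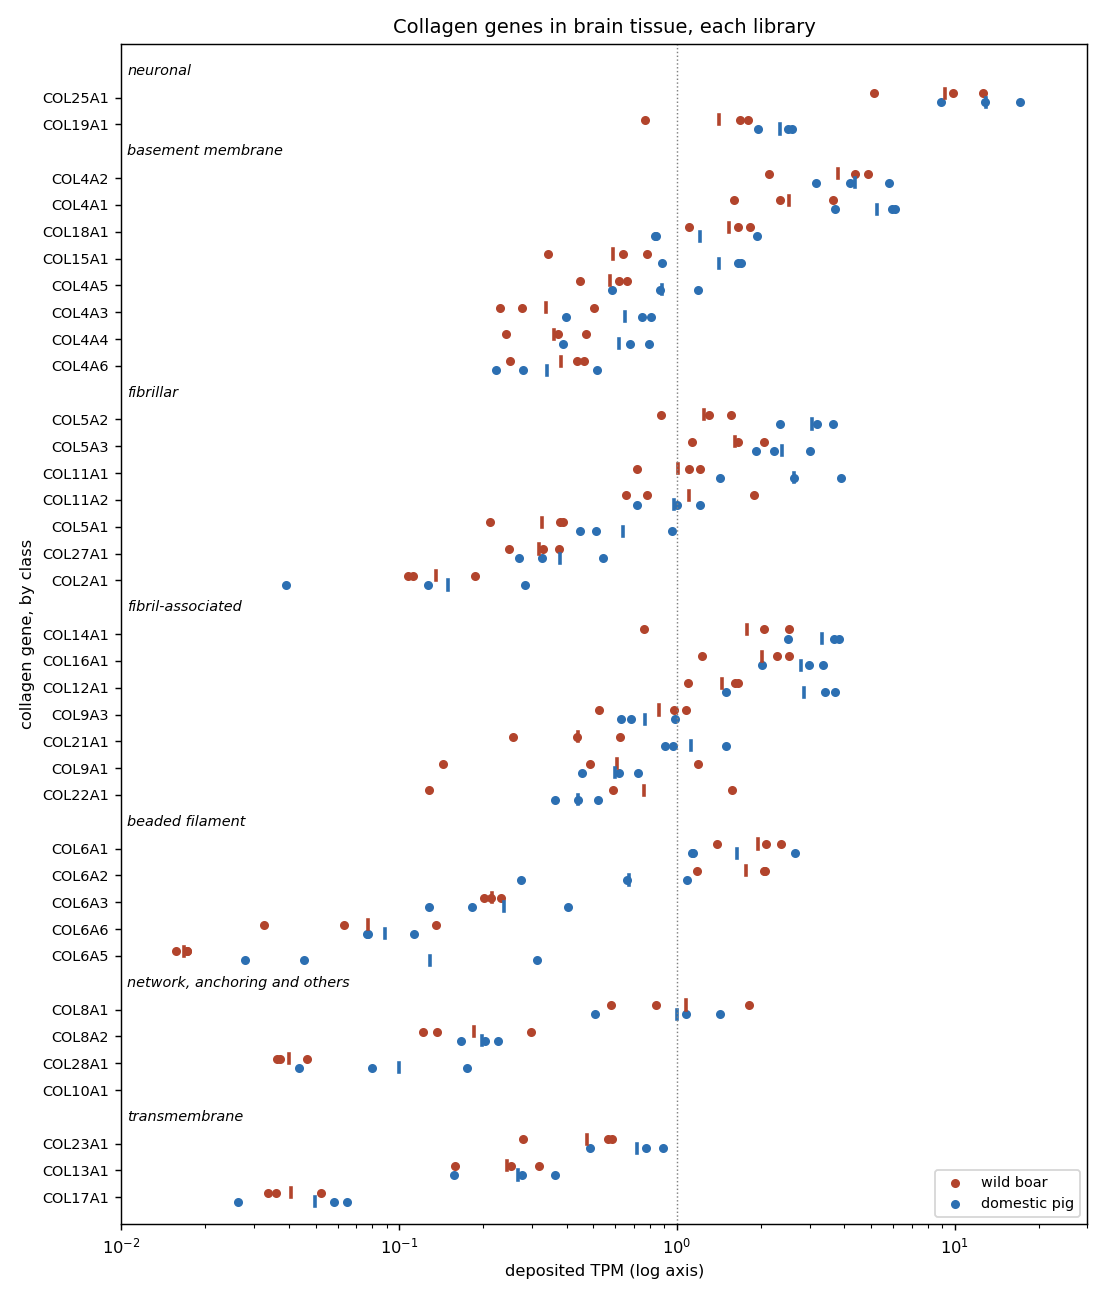
Deposited TPM (log axis) of the 36 collagen genes by class, with 1 point per library and the group mean as a bar, wild boar above domestic pig in each row; the dotted line marks 1 TPM, and values under 0.01 (all of COL10A1) are not drawn. COL25A1 is the highest of the 36 genes within each library, and most members lie below 1 TPM.

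Of the 36 members, 14 reached 1 TPM in at least 3 libraries and were tested. Of these, 5 passed an adjusted p of 0.05 after rescaling: COL6A2 and COL18A1 higher in wild boar, and COL4A1, COL5A2 and COL11A1 lower. Among all 11752 genes tested 19.5% passed, 8.88% higher and 10.7% lower. On deposited TPM 0 of the 14 passed by limma, against 1.6% of all genes (0.136% higher, 1.46% lower). On that scale 6 of the 14 had an unadjusted p below 0.05, as did 17.8% of all genes tested. The median log2 fold change of all 14 was -0.03 after rescaling and -0.43 on deposited TPM, close to the medians of all genes tested, 0.01 and -0.41. After rescaling, the groups did not overlap for 2 members with wild boar higher and 4 with wild boar lower, where 19.6% and 22.1% of all genes tested, 41.7% in all, had such groups. On deposited TPM they did not overlap for 1 member with wild boar higher (COL6A2) and 4 with wild boar lower (COL4A1, COL5A2, COL11A1 and COL19A1), against 0.408% and 17.1% of all genes tested, 17.5% in all. The members thus lay on both sides, and 9 of the 14 did not pass.

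**Figure D2:**
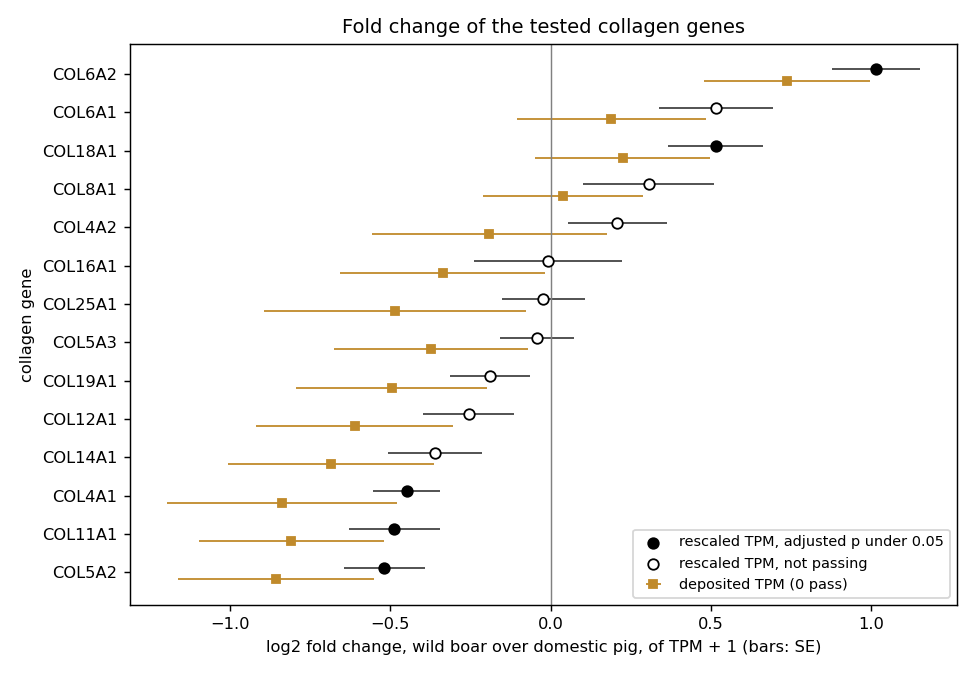
Log2 fold change of TPM + 1, wild boar over domestic pig, for the 14 tested collagen genes, with SE as bars; circles are rescaled TPM (filled where the adjusted p is under 0.05) and squares deposited TPM. COL6A2 lies highest at 1.02 and COL5A2 lowest at -0.52 after rescaling.

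Among the basement membrane genes, COL4A1 was lower in wild boar after rescaling and its partner chain COL4A2 did not pass. These 2 genes encode the chains of the main type IV collagen, made in a fixed proportion within each molecule, and lie next to each other head to head. COL4A1 had 2.35, 1.61 and 3.63 TPM in wild boar, against 3.69, 5.91 and 6.11 TPM in domestic pig. Every wild boar library was lower than every domestic pig library, narrowly so on deposited TPM and clearly after rescaling, where wild boar was at 2.67, 2.79 and 3.11 and domestic pig at 4.21, 4.11 and 4.46. The rescaled log2 fold change was -0.45 (SE 0.10, limma adjusted p = 0.0223), and the deposited one -0.84 (adjusted p = 0.217). COL4A2 had 4.85, 2.14 and 4.35 TPM in wild boar, against 3.15, 5.80 and 4.19 TPM in domestic pig, with groups that overlapped. It was at 0.21 after rescaling (SE 0.15, limma adjusted p = 0.358) and at -0.19 on deposited TPM, so its sign turned with the scaling.

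A ratio of 2 genes within a library does not depend on the scaling between libraries. COL4A2 over COL4A1 was 2.06, 1.33 and 1.2 in wild boar, against 0.854, 0.981 and 0.686 in domestic pig, so COL4A2 exceeded COL4A1 in every wild boar library and in no domestic pig library. The 2 genes overlap at their starts in the Sscrofa11.1 annotation of RefSeq, and the sources used here give no strand setting for the counting, so reads there cannot be assigned surely to one of them. The ratios were chosen with the values known and are given as descriptions, without a test. COL4A3 and COL4A4, chains of the type IV collagen of kidney and other specialised membranes, had a ratio of 1.34, 0.955 and 0.591 in wild boar, against 1.03, 1.02 and 1.10 in domestic pig, which overlapped. COL4A6 over COL4A5, the third such pair of neighbours, was 0.746, 0.562 and 0.661 in wild boar, against 0.382, 0.433 and 0.321 in domestic pig. COL4A3 to COL4A6 all stayed below a mean of 1 TPM in both groups.

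COL18A1 and COL15A1 are close relatives at the outer face of basement membranes, and COL18A1 was higher in wild boar after rescaling. COL18A1, whose end piece is the vessel growth inhibitor endostatin, had 1.65, 1.11 and 1.84 TPM in wild boar, against 0.834, 1.94 and 0.842 TPM in domestic pig. Domestic pig 2 had the highest of the 6 deposited values, and the groups parted only after rescaling, with 1.88, 1.92 and 1.58 in wild boar, against 0.952, 1.35 and 0.614 in domestic pig. The rescaled change was 0.52 (SE 0.15, limma adjusted p = 0.0429), and the deposited one 0.22 (adjusted p = 0.635). COL18A1 reached 1 TPM in 4 libraries, the 3 wild boar ones and domestic pig 2, so it entered the test through the group in which it is called higher. COL15A1 had 0.780, 0.343 and 0.637 TPM in wild boar, against 0.885, 1.66 and 1.70 TPM in domestic pig, lower in every wild boar library. It reached 1 TPM in only 2 libraries and entered the test only with a lower filter. COL18A1 over COL15A1 was 2.12, 3.23 and 2.88 in wild boar, against 0.943, 1.17 and 0.497 in domestic pig. The 8 basement membrane genes together held 24.9% ± 0.0678 of the members' TPM in wild boar, against 25.6% ± 1.01 in domestic pig (SD, n = 3 each).

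**Figure D3:**
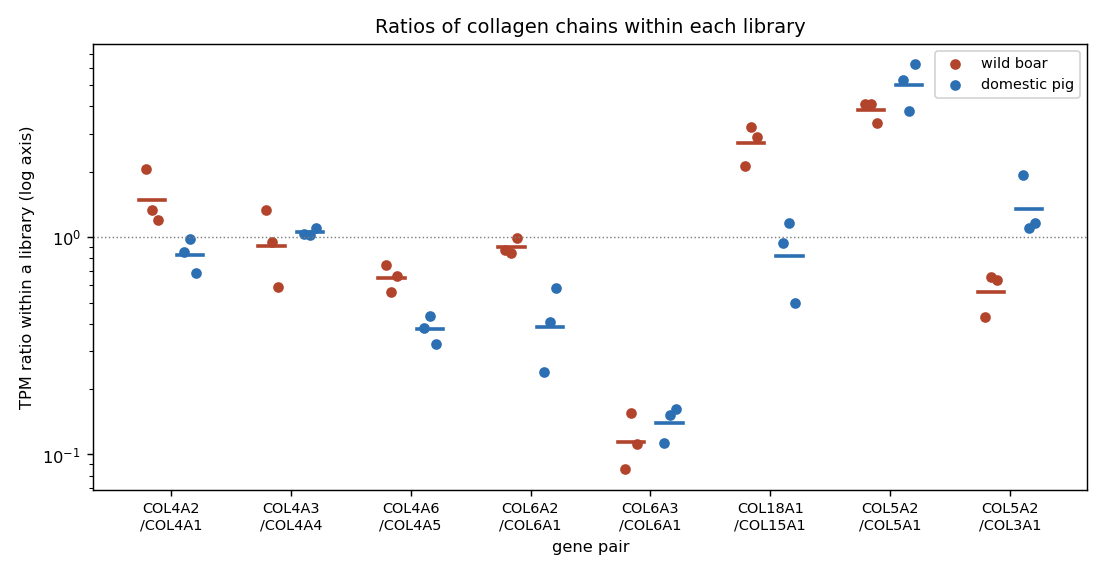
Ratios of the TPM of 2 collagen genes within each library (log axis), with 1 point per library and the geometric mean as a bar, wild boar left of domestic pig. COL4A2 over COL4A1 lies above 1 in the 3 wild boar libraries and below 1 in the 3 domestic pig libraries, and COL4A3 over COL4A4 overlaps between the groups.

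Among the fibrillar genes, COL5A2 and COL11A1 were lower in wild boar after rescaling, and the third tested member, COL5A3, did not pass. COL5A2, a chain of type V collagen, had 1.56, 0.873 and 1.31 TPM in wild boar, against 2.35, 3.65 and 3.20 TPM in domestic pig. Its groups did not overlap on either scaling, and the change was -0.52 after rescaling (SE 0.13, limma adjusted p = 0.0263) and -0.86 on deposited TPM (adjusted p = 0.133). COL11A1, a chain of the type XI collagen of cartilage, had 1.10, 0.715 and 1.21 TPM in wild boar, against 1.42, 3.88 and 2.62 TPM in domestic pig, again without overlap on either scaling. It changed by -0.49 after rescaling (SE 0.14, limma adjusted p = 0.0445) and -0.81 on deposited TPM (adjusted p = 0.131). COL5A3, of the same type V family, had 1.66, 1.13 and 2.06 TPM in wild boar, against 1.92, 3.00 and 2.22 TPM in domestic pig, at -0.04 after rescaling (limma adjusted p = 0.819). COL5A2 and COL11A1 each reached 1 TPM in the 3 domestic pig libraries and in 2 wild boar libraries, so the group in which they are high was enough for the test.

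COL5A2 over COL5A1, its partner chain in type V collagen, was 4.09, 4.10 and 3.36 in wild boar, against 5.28, 3.80 and 6.25 in domestic pig, and the groups overlapped. COL5A2 lies beside COL3A1, a gene of type III collagen, and the ratio of COL5A2 to COL3A1 was 0.428, 0.653 and 0.634 in wild boar, against 1.93, 1.10 and 1.16 in domestic pig. COL3A1 and the type I genes were left out of the members and none of them passed: COL3A1, COL1A1 and COL1A2 were at 0.33, 0.63 and 0.72 after rescaling (limma adjusted p = 0.323, 0.0894 and 0.0863). On deposited TPM these 3 were at -0.04, 0.33 and 0.26. COL11A2, which pairs with COL11A1 in type XI collagen, had 0.779, 1.88 and 0.657 TPM in wild boar, against 0.718, 0.998 and 1.21 TPM in domestic pig, and wild boar 2 stood apart. COL5A1, COL27A1 and COL2A1 had mean TPM of at most 0.639 in either group. Fibrillar genes held 15.1% ± 4.35 of the members' TPM in wild boar, where wild boar 2 was high at 20.2% with its COL11A2, and 17.8% ± 0.404 in domestic pig (SD, n = 3 each).

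Type VI collagen, whose 3 main chains form the beaded filaments around vessels and fibroblasts, gave the member with the largest rescaled fold change of the 14 tested. COL6A2 had 2.06, 1.18 and 2.07 TPM in wild boar, against 0.274, 1.08 and 0.660 TPM in domestic pig, higher in every wild boar library. After rescaling the values were 2.34, 2.04 and 1.77 in wild boar, against 0.312, 0.753 and 0.481 in domestic pig, a log2 fold change of 1.02 (SE 0.14, limma adjusted p = 0.00564). On deposited TPM it was 0.74 (SE 0.26, adjusted p = 0.123). COL6A2 reached 1 TPM in 4 libraries, the 3 wild boar ones and domestic pig 2, so its entry into the test rested on the group in which it is high. COL6A1, which is assembled with it, had 2.36, 1.39 and 2.09 TPM in wild boar, against 1.14, 2.67 and 1.13 TPM in domestic pig. Its change was 0.52 after rescaling (SE 0.18, limma adjusted p = 0.0731) and 0.19 on deposited TPM.

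COL6A2 over COL6A1 was 0.873, 0.849 and 0.987 in wild boar, against 0.240, 0.407 and 0.582 in domestic pig, so the 2 chains were nearly level in wild boar while COL6A2 was the lower in domestic pig. COL6A3, the largest chain, was low in both, at 0.202, 0.214 and 0.233 TPM in wild boar, against 0.128, 0.405 and 0.183 TPM in domestic pig. COL6A3 over COL6A1 was 0.0854, 0.155 and 0.111 in wild boar, against 0.113, 0.152 and 0.161 in domestic pig, which overlapped. COL6A5 and COL6A6, chains that can stand in for COL6A3, were at most 0.313 TPM in any library. Type VI genes held 10.1%, 11.03% and 9.22% of the members' TPM in wild boar 1 to 3, against 3.98%, 5.95% and 4.08% in domestic pig 1 to 3. It was the only one of the 7 classes whose shares did not overlap between the groups, a description of summed members with no test.

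**Figure D4:**
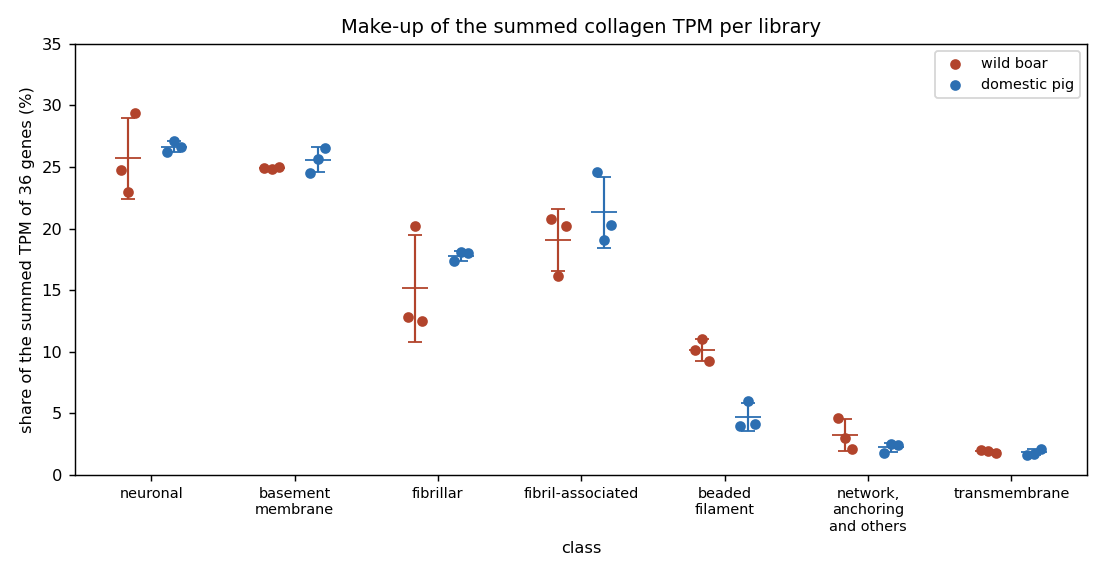
Share of each class in the summed TPM of the 36 collagen genes, in percent, with 1 point per library and the mean and SD as bars (n = 3 each), wild boar left of domestic pig. The beaded filament class lies at 9.22% or more in wild boar, against 5.95% or less in domestic pig, and the neuronal and basement membrane classes lie near 25% in both.

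The fibril-associated collagens, which sit on the surface of fibrils, gave no passing gene. COL14A1 had 2.05, 0.763 and 2.53 TPM in wild boar, against 2.50, 3.68 and 3.82 TPM in domestic pig. Its groups overlapped on deposited TPM but not after rescaling, with 2.32, 1.32 and 2.17 in wild boar, against 2.85, 2.56 and 2.79 in domestic pig, and its change of -0.36 (SE 0.15) did not pass (limma adjusted p = 0.115). COL12A1 had 1.61, 1.10 and 1.66 TPM in wild boar, against 1.504, 3.71 and 3.41 TPM in domestic pig, at -0.26 after rescaling (limma adjusted p = 0.222). COL16A1 had 2.54, 1.23 and 2.28 TPM in wild boar, against 3.35, 2.98 and 2.02 TPM in domestic pig, at -0.01 after rescaling (limma adjusted p = 0.985). COL8A1, a network collagen of vessel walls, was at 1.82, 0.579 and 0.839 TPM in wild boar, against 0.507, 1.42 and 1.07 TPM in domestic pig, at 0.31 after rescaling (limma adjusted p = 0.311).

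The 22 members not tested had a mean of at most 1.04 TPM, and 21 of them were above 0 in all 6 libraries. The exception, COL10A1 of growth plate cartilage, was above 0 in wild boar 2 alone, at 0.00396 TPM. The transmembrane genes other than COL25A1 were all among them: COL23A1 averaged 0.476 ± 0.171 TPM in wild boar, against 0.717 ± 0.207 TPM in domestic pig, COL13A1 0.244 ± 0.0806 TPM in wild boar, against 0.267 ± 0.104 TPM in domestic pig, and COL17A1, a collagen of the anchoring complexes of skin, 0.0407 ± 0.0101 TPM in wild boar, against 0.0499 ± 0.0207 TPM in domestic pig (SD, n = 3 each). Of the type IX chains of cartilage, COL9A3 averaged 0.861 ± 0.295 TPM in wild boar, against 0.764 ± 0.193 TPM in domestic pig and COL9A1 0.607 ± 0.535 TPM in wild boar, against 0.599 ± 0.136 TPM in domestic pig. COL8A2, the partner of COL8A1, averaged 0.185 ± 0.0978 TPM in wild boar, against 0.199 ± 0.0303 TPM in domestic pig, and COL28A1 0.0401 ± 0.00569 TPM in wild boar, against 0.0995 ± 0.0678 TPM in domestic pig. With a filter of 0.1 TPM and a pseudocount of 0.1, chosen with the values known, 31 members were tested and 4 passed: COL6A2 higher by 1.86, and COL4A1, COL5A2 and COL11A1 lower, at -0.56, -0.76 and -0.75. With those settings 15.9% of 16076 genes passed (6.13% higher, 9.74% lower). With the lower filter alone 3 passed, COL6A2, COL4A1 and COL5A2, against 14.2% of genes (5.59% higher, 8.58% lower). On deposited TPM with both settings 1 passed, COL6A2, against 5.29% of genes (0.355% higher, 4.93% lower). With both settings on rescaled TPM, COL18A1 missed the threshold at 0.87 (limma adjusted p = 0.0558), as did COL15A1 at -0.69 (adjusted p = 0.0650) and COL21A1, a fibril-associated gene, at -0.78 (adjusted p = 0.0547). COL21A1 had 0.436, 0.257 and 0.623 TPM in wild boar, against 0.967, 1.504 and 0.903 TPM in domestic pig, lower in every wild boar library. COL22A1, known from the junction of muscle and tendon, ranged from 0.128 to 1.57 TPM in wild boar, against 0.363 to 0.521 TPM in domestic pig, and wild boar 1 held the highest value.

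COL6A2 passed whichever library was left out, at a limma adjusted p of 0.00642 to 0.0269. COL4A1 passed only without domestic pig 2, and its adjusted p was 0.0510 to 0.0745 without each of the other libraries. COL5A2 missed the threshold without wild boar 2 (limma adjusted p = 0.0697), wild boar 3 (0.0800) or domestic pig 1 (0.0823). COL18A1 passed only without domestic pig 2 (its adjusted p was 0.0738 to 0.124 otherwise), and COL11A1 missed the threshold without any 1 of the 6 libraries (0.0519 to 0.123). The sign of these 5 changes stayed the same without each library in turn.

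Genes that fold, cut, bind or break down collagen also went both ways. Of 65 genes in 5 lists 44 were tested; 5 were higher in wild boar, 4 lower and 35 did not pass after rescaling, and 0 passed on deposited TPM. The share of 9 in 44 is near the 19.5% of all genes tested. Of 16 tested genes for folding and modification, P4HB, a subunit of the prolyl hydroxylase that stabilises the helix, was higher by 0.67 (SE 0.11, limma adjusted p = 0.00786), and PLOD2, a lysyl hydroxylase that prepares cross-links, was lower, at -0.65 (SE 0.11, adjusted p = 0.00814). P3H1 and P4HA1, further prolyl hydroxylase genes, were at 0.45 and -0.39 and did not pass. Of 7 genes for cleavage and cross-linking, PCOLCE, which enhances the cutting of procollagen, was higher by 0.87 (SE 0.15, adjusted p = 0.01). It had 3.25, 1.81 and 2.69 TPM in wild boar, against 0.811, 2.01 and 1.74 TPM in domestic pig. LOX, PCOLCE2 and ADAMTS3 were at 0.22, 0.21 and -0.18 and did not pass.

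Of 10 partners of collagen in basement membranes, the laminin gene LAMC3 was higher by 0.39 (SE 0.11, limma adjusted p = 0.0393) and LAMA4, the laminin chain of vessel walls, lower, at -0.68 (SE 0.20, adjusted p = 0.0447). LAMB3 and HSPG2, which encodes perlecan, were at 0.26 and 0.43 and did not pass. Of 5 collagen receptors, ITGB1, the shared beta chain of the collagen-binding integrins, was lower, at -0.38 (SE 0.10, adjusted p = 0.0321), and DDR2, ITGA10 and ITGA1 were at -0.12, -0.09 and 0.12 and did not pass. Of 6 genes of breakdown, TIMP1, an inhibitor of the matrix metalloproteinases, and MMP15 were higher by 0.63 and 0.67 (adjusted p = 0.00802 and 0.0103), and MMP16 was lower, at -0.56 (adjusted p = 0.0264), with TIMP3 at 0.39 and not passing. P4HB, PLOD2, PCOLCE, TIMP1 and MMP15 passed without any 1 library. LAMA4, ITGB1 and MMP16 missed the threshold without 5, 5 and 4 of the 6 libraries (adjusted p up to 0.140, 0.0935 and 0.0826), and LAMC3 in each of the 3 fits that still tested it (up to 0.116). On deposited TPM these 9 were at 0.19 (P4HB), -1.08 (PLOD2), 0.52 (PCOLCE), 0.15 (LAMC3), -1.02 (LAMA4), -0.87 (ITGB1), 0.30 (TIMP1), 0.29 (MMP15) and -1.001 (MMP16).

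**Figure D5:**
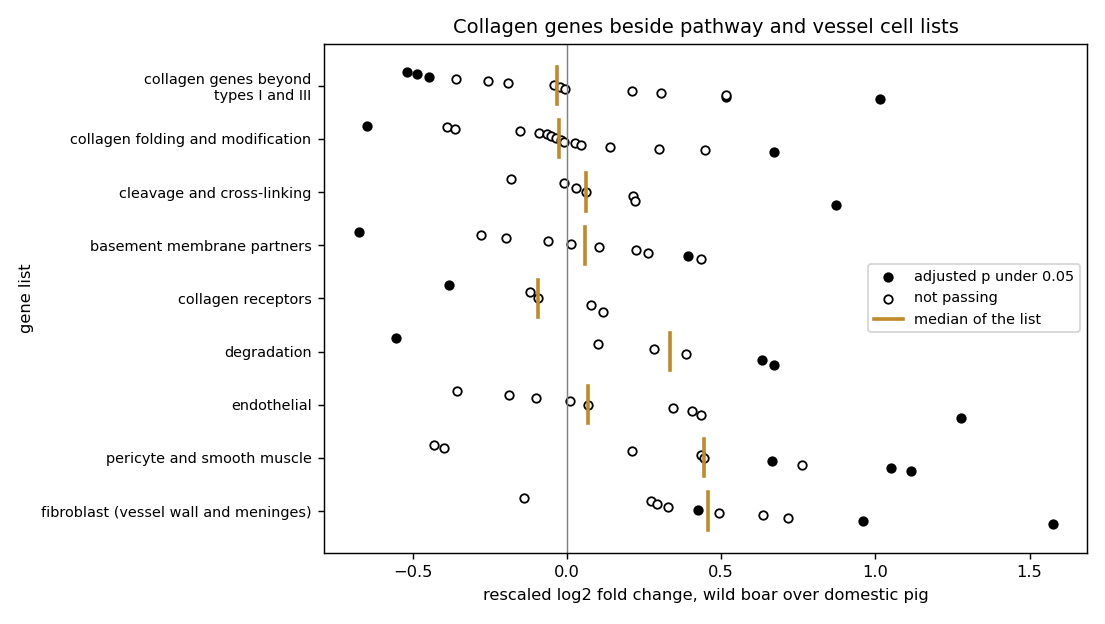
Rescaled log2 fold change, wild boar over domestic pig, of each tested gene of the collagen set, of 5 collagen pathway lists and of 3 vessel cell lists, filled where the adjusted p is under 0.05, with the list's median as a bar. Passing genes lie on both sides of 0 in the collagen set, and the 3 passing genes of the pericyte and smooth muscle list and the 3 of the fibroblast list lie above 0.

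Some of the tested markers of vessel cells passed after rescaling. Among all genes tested, 8.88% passed as higher in wild boar and 10.7% as lower. The fibroblast list, which holds COL1A1, COL1A2 and COL3A1, had 3 of 10 tested genes higher after rescaling, the matrix genes FBLN1 (0.96) and MGP (1.58) and the transporter SLC6A13 (0.42), and COL1A2 did not pass, with a summed rescaled TPM of 53.8 to 90.4 in wild boar, against 36.3 to 42.1 in domestic pig. Pericyte and smooth muscle markers had 3 of 9 higher, TAGLN, MYL9 and ACTA2 (1.05, 0.66 and 1.11). ABCC9 at -0.40 and RGS5 at -0.43 did not pass, nor did MYH11 at 0.76. Of these 9 genes, RGS5 had the highest mean TPM. The summed rescaled TPM of this list was 68.5 to 85.9 in wild boar, against 58.7 to 71.7 in domestic pig. Endothelial markers had 1 of 9 higher, the tight junction gene CLDN5 (1.28), and CDH5, TEK and PECAM1 at 0.43, -0.36 and 0.41 did not pass, with a sum of 33.3 to 44.9 in wild boar, against 25.02 to 29.7 in domestic pig. The red blood cell list had 4 of 4 higher, HBB (2.32), AHSP (1.19), ALAS2 (1.19) and HBM (1.03), but AHSP and HBM reached 1 TPM in the 3 wild boar libraries alone and ALAS2 in these and 1 domestic pig library, so the count is no support for a change of the list. Its sum was 448.0 to 1319 in wild boar, against 85.6 to 227.3 in domestic pig. Single genes weigh heavily in these sums, so groups of sums that part are no support for a change of a list. Rescaled MGP was at 42.4, 17.1 and 17.9 in wild boar, against 6.08, 6.03 and 10.2 in domestic pig. Rescaled CLDN5 was at 13.4, 19.8 and 20.1 in wild boar, against 7.63, 5.25 and 7.25 in domestic pig. Rescaled HBB was at 667.3, 1306.7 and 444.1 in wild boar, against 158.7, 84.9 and 224.8 in domestic pig. CLDN5 and FBLN1 passed without any 1 library, MGP missed the threshold without domestic pig 1 (limma adjusted p = 0.0582), and TAGLN, MYL9, ACTA2 and SLC6A13 missed it without 3, 3, 5 and 5 of the 6 libraries. HBB passed without any 1 library, ALAS2 missed it without 4 of the 6 (up to 0.0680), and HBM in each of the 3 fits that still tested it (up to 0.108), while AHSP passed in its 3. In the neuronal lists, 3 of 6 glutamatergic, 0 of 6 GABAergic and 0 of 4 pan-neuronal genes passed as higher after rescaling. In the glial lists, 1 of 6 astrocyte, 0 of 4 oligodendrocyte, 2 of 4 oligodendrocyte precursor and 1 of 6 microglial genes did. In the neuronal and glial lists 0 genes passed as lower. Genes that did not pass lay on both sides, among them NEUROD6 (-0.60), AQP4 (-0.62), VCAN (-0.66), P2RY12 (-0.66), TBR1 (0.46) and RBFOX3 (0.43). On deposited TPM 0 genes of the first 3 lists passed and 2 of the red blood cell list did. None of the markers that had a row was at 0 in all libraries. VWF, HBA1 and MOBP, of the endothelial, red blood cell and oligodendrocyte lists, had no row under their symbol. The part of these cell types in the collagen values was not tested.

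Circular RNAs, closed loops read across a back-splice junction, gave a second readout of the same loci. Of 11375 listed, 12 lay inside a collagen gene, in 6 genes: 6 in COL25A1, 2 in COL24A1 and 1 each in COL4A3, COL12A1, COL14A1 and COL21A1. COL24A1 had no row under its symbol among the protein-coding genes, so its gene level was not analysed here. None of the 12 lay in COL4A1, COL4A2 or a type VI gene. Of the 12, 6 were tested and 0 passed by limma on deposited TPM, where 0.134% of 9709 circRNAs passed. An unadjusted p under 0.05 was found for 2 of the 6, and for 14.5% of all circRNAs tested. Read totals differed: all listed circRNAs together had at least 37670, 58670 and 33360 reads in wild boar 1 to 3. In domestic pig 1 to 3 they had at least 70365, 48375 and 72167, so read counts are not on 1 scale. The summed circRNA TPM was 1994.1 to 2121.4 in wild boar, against 2879.5 to 3366.8 in domestic pig. The read totals therefore mix depth with circRNA level and do not measure depth alone. A COL25A1 circRNA (ssc_circ_10868, chromosome 8, 113243741 to 113273500, plus strand) had at least 3, 3 and 3 reads in wild boar, against at least 0, 0 and 1 in domestic pig, a log2 fold change of 1.84 (SE 0.67, limma adjusted p = 0.209). A COL21A1 circRNA (ssc_circ_1995, chromosome 7, 29506146 to 29555908, plus strand) had 0 reads in all 3 wild boar libraries and at least 1, 2 and 3 in domestic pig (limma adjusted p = 0.168), so it entered the test through domestic pig alone.

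The 5 of highest mean TPM included these 2. The others were ssc_circ_8374 of COL14A1, with at least 2, 2 and 2 reads in wild boar, against 6, 1 and 2 in domestic pig, ssc_circ_10280 of COL24A1, with 0, 3 and 0 in wild boar, against 0, 1 and 5 in domestic pig, and ssc_circ_6995 of COL25A1, with 1, 3 and 1 in wild boar, against 2, 1 and 3 in domestic pig. At so few reads no difference between the breeds was detectable for these. The linear COL25A1 level, at -0.02 after rescaling, and its circRNAs, which summed to 0.265, 0.854 and 0.423 TPM in wild boar, against 0.203, 0.0974 and 0.440 TPM in domestic pig, overlapped between the groups.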

How the data were processed

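The authors deposited TPM for protein-coding genes and for circRNAs, with 1 column per library, and 0 further columns went unused. STAR (2.6.0c) and BWA (0.7.17) appear, with no role stated, per the submitters' processing notes. The genome build, the annotation, the counter and whether it used strand are not given in the sources used here. Per the labels' protocols, the libraries were stranded and rRNA-depleted.

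Symbols came from a table of gene identifiers (14821 of 21280 matched). Genes reaching 1 TPM in 3 or more libraries (11752) were tested with limma 3.58.1 in R 4.3.3, with a mean-variance trend, on log2(TPM + 1) after median-ratio rescaling, as a two-sided contrast of the breeds, adjusted by Benjamini-Hochberg over all genes tested. The log2 factors subtracted from each library were -0.18, -0.79 and 0.22 for wild boar 1 to 3, against -0.19, 0.52 and 0.45 for domestic pig 1 to 3. On deposited TPM limma pooled the variance wholly over genes of like level, so those SE do not measure a single gene. In a simulation with the gene means and spreads of the rescaled comparison, over 11752 genes, 82% of 200 changes of 1 log2 unit were recovered, with 10 false calls. Noise was drawn independently for each gene and library. The number of false calls therefore does not cover deviations that many genes of a library share. The changed genes were drawn only from genes of higher level. That share therefore does not cover members of low level or smaller changes. CircRNAs above 0 in at least 3 libraries (9709) were tested on log2(TPM + 0.045), deposited scale. Circular reads are the smallest whole solution within 1e-05 of the deposited TPM, and so a lower bound. CircRNAs were placed in genes by position: 99.31% lay inside a gene of the Sscrofa11.1 RefSeq annotation, against 47.24% after a shift of 1000000 bases. Their positions count from 1, in the build of the deposited table, which is not named. Alternatives tried were other scalings, pseudocounts and filters, no trend, a replicate block and leaving out each library.

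The members, classes and lists were chosen with earlier results of these data known. Values are given for members that passed on either scaling, the 6 of highest mean TPM, COL4A1, COL4A2, COL19A1 and COL25A1. Other members were added after their values were seen. Of each pathway, vessel and blood list, the counts and up to 4 genes of lowest p are given. RGS5 and MYH11 were added to these after their values were seen. Of neuronal and glial lists, the counts are given, with some genes that did not pass, also picked after their values were seen. Nothing in the labels says how the animals were sampled beyond 1 library each, so p-values set a difference against the spread between these libraries only. Limma takes part of that spread from genes of like level, and on deposited TPM all of it.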

Additional observations from a re-analysis of the deposited data

How the results depend on the processing

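The count of 5 passing collagen genes (2 higher, 3 lower, of 2295 passing genes in all) was the same, with the same 5 genes, under quantile scaling and without the mean-variance trend. On deposited TPM 188 genes and 0 collagen genes passed (0 higher, 0 lower), and the members' median was -0.43; scaled to the protein-coding sum 1139 and 1 passed (1 higher, 0 lower). With a pseudocount of 0.1, 4 passed (1 higher, 3 lower). Without a filter 2 passed (1 higher, 1 lower), with a filter at 0.1 TPM 3 passed (1 higher, 2 lower), and with that filter and a pseudocount of 0.1, chosen after seeing the data, 4 passed (1 higher, 3 lower). Leaving out 1 library gave 779 (without wild boar 2) to 2165 (without domestic pig 2) passing genes, 1 to 5 collagen genes (1 to 3 higher, 0 to 2 lower), and a median of -0.20 (without domestic pig 3) to -0.015 (without domestic pig 1). The cause of these differences was not tested.

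COL6A2 missed the threshold only on deposited TPM, among 15 alternatives; COL4A1, COL5A2, COL18A1 and COL11A1 missed it in 8, 6, 11 and 11. COL6A1 passed only without domestic pig 2 (adjusted p = 0.0293). None of these 6 changed sign; COL4A2 did on deposited TPM.

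The labels number the libraries 1 to 3 in each group. The deviations of same-numbered libraries correlated at 0.112, -0.0745 and -0.163, and 1 of 3 wild boar libraries correlated best with its own number. With 3 libraries per group these values cannot show or exclude a pairing by number. With the replicate block 1250 genes and 3 collagen genes passed (2 higher, 1 lower); COL4A1 and COL11A1 were at adjusted p = 0.0518 and 0.0651. Of circRNAs 13 passed, 2 after median-ratio rescaling, 26 with a pseudocount of 0.1, 6 without the filter, 21 with the replicate block and 1 to 25 without 1 library; 0 collagen circRNAs passed under each of these. Levels near 1 TPM and circRNAs of a few reads limit what could be detected.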
